A study of Mus musculus with 6 samples.

Results

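Early gene expression in RAW 264.7 cells, a mouse leukemic macrophage line, was compared between cells collected after 12 h with mica fine particles (MFP) and cells collected at 0 h. The comparison takes 4 of the 6 arrays of the series, 2 from 12 h and 2 from 0 h, chosen by the time in the sample titles, and the 2 arrays of 48 h served to estimate the spread and to follow the genes that moved at 12 h. MFP are manufactured particles of mica, an aluminosilicate mineral. The cells of both groups had been seeded in medium with 2% serum and cultured before the particles were added, and the dose named for every time point is 100 μg/mL, so 0 h stands for cells collected as the particles were added. No array of cells kept without particles until 12 h is among these samples, and a further 12 h in low serum medium and 12 h with particles cannot be told apart. The line is a single transformed line. No source used here says if the paired arrays of each time come from different flasks, so the p-values cover only array to array spread, which may be technical.

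Macrophages take up mineral particles into phagosomes that fuse with lysosomes. Their transcription answers to several sensors that work side by side. Low oxygen, iron shortage and some inflammatory signals stabilize hypoxia-inducible factor, which switches on genes of glycolysis, blood vessel growth and mitochondrial clearance. The sterol regulators of the SREBP family switch on cholesterol and fatty acid synthesis when membrane sterol is low. Interferons, often released by macrophages themselves, induce antiviral genes, and shortage of amino acids or stress of the endoplasmic reticulum acts through the factor ATF4. Values below are normalized signals, the brightness of a probe after quantile normalization, and log2 fold changes of 12 h over 0 h ± standard error from limma with n = 2 arrays per time point.

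The macrophage label was checked against marker genes. Of 11 macrophage markers on the array 10 were detected on all 6 arrays, among them Csf1r, Adgre1, Itgam, Lyz2, Spi1 and Tyrobp, while Mertk was not detected. The summed signal of the macrophage markers was 39749 to 39983 at 12 h and 42662 to 43935 at 0 h. Of the T cell markers only Cd8b1 and Il7r were detected and Cd3d, Cd3e and Cd3g were not, of the B cell markers only Ebf1, of the epithelial ones Cdh1 and Cldn7, and of those of fibroblasts, neutrophils and dendritic cells 0 were detected on all 6 arrays. Il7r was the only marker of another cell type that rose. Its part in any other result was not tested. The table of normalized values deposited with the series falls into 2 separately normalized sets, with 12 h replicate 2 and 0 h replicate 1 in one and 12 h replicate 1 and 0 h replicate 2 in the other. Each of the 134 features called below kept its direction within both sets, at 1.5-fold or more. The calls were made on the same arrays, so this agreement was largely fixed by the call and is no separate check.

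After 12 h, 117 of 9984 features were at least 2-fold higher at an adjusted p under 0.05 (1.17% of those tested) and 17 were at least 2-fold lower (0.17%). These features are the ones referred to as called. Named genes made up 103 of the higher and 15 of the lower ones, and in all 134 the 12 h arrays did not overlap with the 0 h arrays. Among all features the 12 h arrays lay above the 0 h arrays in 27.8% and below in 31%. Without the fold threshold, 1037 features rose (10.4%) and 884 fell (8.85%), most of them by less than 1.5-fold, 629 upward and 704 downward. When arrays were scaled to their 75th percentile in place of quantile normalization, only 139 features rose and 19 fell, so the share of rises was 88% against 54%. Below, a member of a gene list is said to rise or fall when it passed the adjusted p alone, and its list is to be read beside these background shares.

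**Figure D1:**
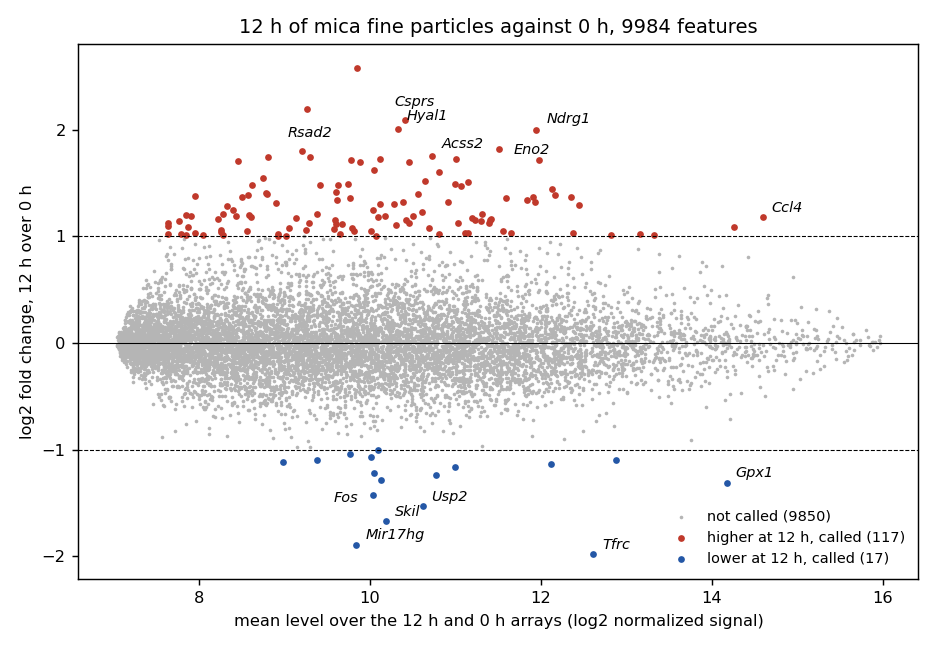
Each point is 1 of the 9984 features, placed by its mean level over the 12 h and 0 h arrays (log2 normalized signal) and by its log2 fold change of 12 h over 0 h, with dashed lines at 2-fold. The largest rise lies at 2.57 and the largest fall, that of Tfrc, at -1.98, and the called features spread over dim and bright probes.

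The largest rise of all was that of a probe with no gene symbol, ILMN_2742426, with signals of 2072 and 2422 at 12 h, against 403 and 351 at 0 h, a log2 fold change of 2.57. At 48 h its signals were 436 and 496. The largest rise of a named gene was that of Csprs, whose copies on chromosome 1 a single probe may not tell apart, with 2815 and 2779 at 12 h, against 626 and 694 at 0 h. Hyal1, a lysosomal enzyme that cuts hyaluronan, had 2587 and 2551 at 12 h, against 633 and 650 at 0 h, a rise of 2.00 ± 0.10 (adjusted p = 7.45e-05). Both 12 h arrays stood about 4.00-fold above the 0 h arrays. Its overlapping neighbour on chromosome 9, Naa80, rose by 1.48, and whether the probes tell these overlapping genes apart is not given in the sources used here. Sdc3, a cell surface heparan sulfate proteoglycan, had 600 and 672 at 12 h, against 180 and 210 at 0 h, a rise of 1.71 ± 0.11. Cox6a2, the muscle form of a cytochrome c oxidase subunit, had 2343 and 2723 at 12 h, against 808 and 755 at 0 h, a rise of 1.69 ± 0.12. It was the only member of the respiratory chain list to be called, and 4 of its 68 tested members rose and 1 fell.

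Other large rises were those of membrane proteins and enzymes of various kinds. Aqp9, a channel for water and glycerol, had 1787 and 1936 at 12 h, against 619 and 591 at 0 h (1.62 ± 0.10). Il7r, the interleukin 7 receptor, had 2680 and 3612 at 12 h, against 1084 and 975 at 0 h (1.60 ± 0.14), while its other probes changed by 1.09 and by 0.34, and the one at 0.34 did not pass. St3gal6, a sialyltransferase, had 2631 and 2798 at 12 h, against 1069 and 839 at 0 h (1.52 ± 0.13). Slc46a3, a lysosomal transporter, had 1465 and 1414 at 12 h, against 534 and 491 at 0 h, and Plk2, a stress-induced polo-like kinase, had 3593 and 3218 at 12 h, against 1122 and 1315 at 0 h, and both rose by 1.49. Tubb2b, a beta tubulin, and Serpinf1, a secreted serpin, rose by 1.69 and 1.54 on their brightest probe, but their second probes changed by 0.24 and -0.09 and did not pass. For the 35 genes with the largest changes 14 further probes were detected, 13 of which had the direction of the brightest probe and 9 of which passed.

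**Figure D2:**
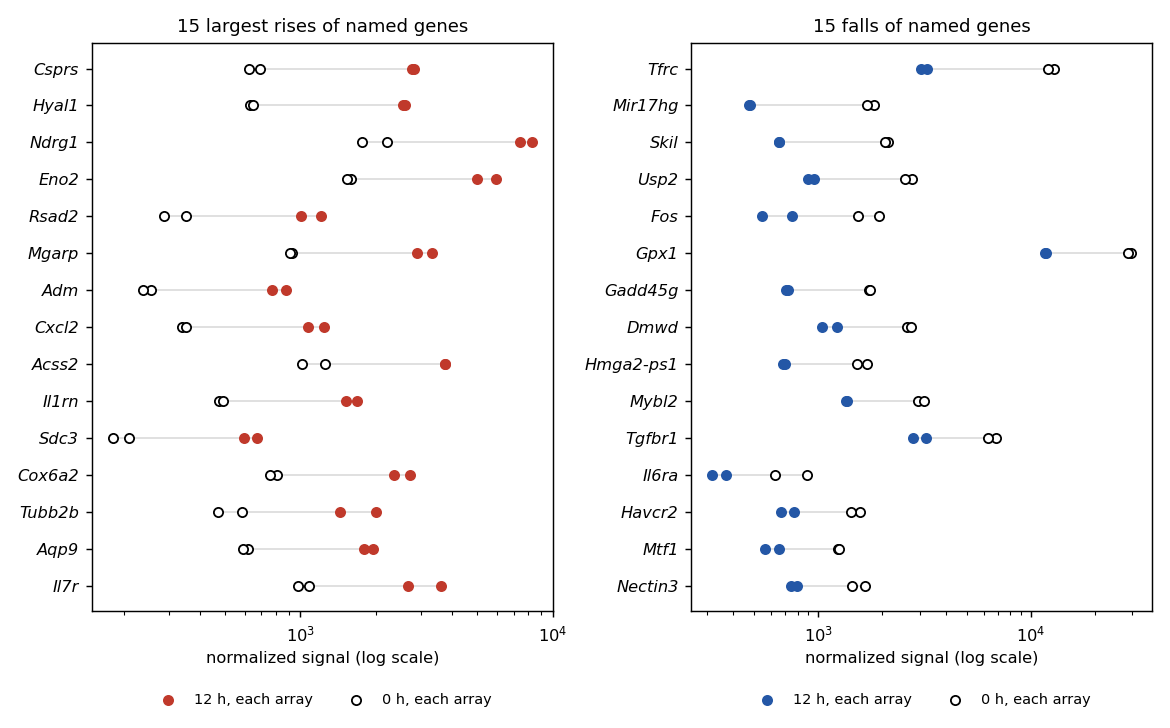
Normalized signal of each array (log scale) for the 15 largest rises and the 15 falls of named genes, with filled points for the 2 arrays of 12 h and open points for the 2 arrays of 0 h. Only called genes whose 12 h and 0 h arrays do not overlap were drawn. The separation of filled and open points was fixed by this choice. The genes run from Csprs, with 2815 and 2779 at 12 h, to Nectin3, with 791 and 748 at 12 h.

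Genes known to respond to hypoxia made up one group of rises. Of 30 tested members of the hypoxia list 16 rose (53.3%) and 0 fell, 10 of them called, and the median of all 30 was 0.40, where the median of all features was -0.017. Ndrg1, a stress-responsive gene often used as a hypoxia marker, had 8290 and 7412 at 12 h, against 1756 and 2200 at 0 h, a rise of 2.00 ± 0.16 (adjusted p = 0.000245), and its second probe rose by 2.11. Adm, the vasodilator peptide adrenomedullin, had 772 and 875 at 12 h, against 254 and 237 at 0 h, a rise of 1.74 ± 0.10. Hilpda, a lipid droplet protein, had 3637 and 4021 at 12 h, against 1515 and 1196 at 0 h, a rise of 1.51 ± 0.13. Ddit4, an inhibitor of the growth kinase mTORC1, rose by 1.39 ± 0.21 with the widest scatter of these, 742 and 509 at 12 h, against 204 and 271 at 0 h. Vegfa, the vascular growth factor, had 1900 and 2282 at 12 h, against 967 and 941 at 0 h (1.13 ± 0.11), and Bnip3l, a receptor for the removal of mitochondria, had 2977 and 3507 at 12 h, against 1555 and 1610 at 0 h (1.03 ± 0.11). Not every member moved. Hif1a itself, the oxygen-regulated subunit, had 906 and 763 at 12 h, against 727 and 667 at 0 h, a change of 0.26 ± 0.11 that did not pass (adjusted p = 0.14), and Epas1, the second such subunit, was not detected on any array. With the array set as a block Hif1a passed (adjusted p = 0.0297). Of the 10 tested genes in the list of the machinery of the factor 0 rose and Eloc fell. That list does not hold the hydroxylase Egln3 described next.

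The promoters of 3 of these genes are shown because they carry the core of the hypoxia response element, the letters ACGTG, within 250 bases before to 50 bases after the start site. The 3 genes were chosen after their values were seen. The windows are from RefSeq on GRCm38.p6, written 5′ to 3′ on the strand of the gene, and the capitals mark matches to ACGTG on either strand. Ankrd37, an ankyrin repeat protein, lies at chr8:45999801-46000100 on the minus strand, P4ha2, a collagen prolyl hydroxylase subunit, at chr11:54100674-54100973 on the plus strand, and Egln3, an oxygen-sensing hydroxylase that marks the factor itself for removal, at chr12:54203825-54204124 on the minus strand.
Ankrd37: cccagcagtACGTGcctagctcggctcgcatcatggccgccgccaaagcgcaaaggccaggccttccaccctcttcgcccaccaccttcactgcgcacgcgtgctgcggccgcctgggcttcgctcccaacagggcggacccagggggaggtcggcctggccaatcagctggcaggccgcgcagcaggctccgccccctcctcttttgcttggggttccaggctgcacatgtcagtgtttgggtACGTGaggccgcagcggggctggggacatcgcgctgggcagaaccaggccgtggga
P4ha2: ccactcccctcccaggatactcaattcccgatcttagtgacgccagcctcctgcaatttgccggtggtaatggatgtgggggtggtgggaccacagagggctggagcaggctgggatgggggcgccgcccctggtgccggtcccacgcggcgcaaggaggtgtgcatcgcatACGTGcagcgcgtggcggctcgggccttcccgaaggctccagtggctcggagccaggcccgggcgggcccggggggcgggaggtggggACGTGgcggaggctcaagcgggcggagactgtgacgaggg
Egln3: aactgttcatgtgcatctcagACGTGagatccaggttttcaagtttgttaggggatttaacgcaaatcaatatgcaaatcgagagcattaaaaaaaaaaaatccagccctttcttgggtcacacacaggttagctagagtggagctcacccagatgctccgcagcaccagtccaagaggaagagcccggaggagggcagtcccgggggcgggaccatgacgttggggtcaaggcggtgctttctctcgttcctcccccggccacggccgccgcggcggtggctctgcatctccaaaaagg

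Ankrd37 had 628 and 754 at 12 h, against 331 and 348 at 0 h, a rise of 1.02 ± 0.13. P4ha2 had 386 and 415 at 12 h, against 142 and 166 at 0 h, a rise of 1.38 ± 0.10. Egln3 had 2208 and 2581 at 12 h, against 1012 and 1028 at 0 h, a rise of 1.23 ± 0.11. In each of them both 12 h arrays were above both 0 h arrays. The letters ACGTG stood in the windows of 10 of the 12 genes of the list that rose and have a window (83.3%), of 15 of 24 tested members (62.5%), of 31.1% of all 6699 named genes tested and of 19.6% of all 32851 windows. Among the called genes with a window they stood in 30 of the 78 called higher (38.5%) and in 6 of the 13 called lower (46.2%). A match says only that these letters are there.

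Glycolysis and glucose uptake moved in part. Of 22 tested members 8 rose (36.4%) and 1 fell, and the median was 0.31. Eno2, the enolase form known from neurons, had 5033 and 5965 at 12 h, against 1580 and 1526 at 0 h, a rise of 1.82 ± 0.10 (adjusted p = 0.0001). Hk3, a hexokinase of myeloid cells, had 7388 and 7440 at 12 h, against 2863 and 2798 at 0 h, a rise of 1.39 ± 0.08. Pfkp, a phosphofructokinase form, had 11203 and 9390 at 12 h, against 4526 and 5688 at 0 h, a rise of 1.02 ± 0.16, and Slc2a1, the main glucose transporter of many cells, had 13697 and 14733 at 12 h, against 8280 and 7669 at 0 h (0.83 ± 0.10). The classical hypoxia target Ldha, lactate dehydrogenase A, had 39592 and 38693 at 12 h, against 37895 and 38463 at 0 h, a change of 0.04 ± 0.08, and Pgk1 changed by 0.38 ± 0.12 (adjusted p = 0.068). Eno3, the muscle enolase, fell by 0.53. By limma 0 of 19 tested members of the citric acid cycle and 0 of 5 of the pentose phosphate pathway passed, with 2 and 1 at an unadjusted p under 0.05 and 2 and 0 by the methods' t-test. Mgarp, a mitochondrial protein known to respond to hypoxia, had 2887 and 3339 at 12 h, against 929 and 911 at 0 h (1.76 ± 0.11). Under scaling to the 75th percentile 8 of the 30 hypoxia genes and 3 of the 22 glycolysis genes rose, while the medians of the lists were 0.432 and 0.348 and the median standard error of all features was 0.19, against 0.102 with quantile normalization.

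Cholesterol synthesis was the list with the highest share of rises among those with 10 or more tested members. Of its 14 tested members 10 rose (71.4%) and 0 fell, all 14 were above 0, and the median was 0.68. Mvd, which makes isopentenyl diphosphate, had 2052 and 2179 at 12 h, against 883 and 813 at 0 h, a rise of 1.32 ± 0.09 (adjusted p = 0.00017). Nsdhl, a sterol dehydrogenase, had 1144 and 1074 at 12 h, against 520 and 540 at 0 h (1.07 ± 0.09), and Lss, which closes the sterol rings, had 4365 and 4291 at 12 h, against 2237 and 1956 at 0 h (1.05 ± 0.10). Sqle, squalene epoxidase, had 12138 and 12347 at 12 h, against 6763 and 6539 at 0 h (0.88 ± 0.08), and Fdps and Cyp51 rose by 0.80 and 0.73. The rises ranged between 0.36 for Mvk and 1.32 for Mvd. Among 9 regulators of sterol level, Insig1, which retains the SREBP complex in the endoplasmic reticulum, rose by 0.71 ± 0.12, Insig2 by 0.53 and Srebf2, the transcription factor of the sterol genes, by 0.50 ± 0.10, while Scap, its escort, fell by 0.43. The core of the sterol response element, TCACNCCAC, stood in a window of 0 of 12 cholesterol synthesis genes and of 1.34% of all named genes tested. Of all single windows 1.24% held it.

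Fatty acid synthesis moved in the same direction. Of 14 tested members 6 rose (42.9%), 0 fell and the median was 0.34. Acss2, which activates acetate to acetyl-CoA, had 3736 and 3728 at 12 h, against 1251 and 1015 at 0 h, a rise of 1.73 ± 0.11. Scd1, the main fatty acid desaturase, had 4023 and 4689 at 12 h, against 2204 and 2222 at 0 h (0.97 ± 0.10), and Acly, which makes cytosolic acetyl-CoA from citrate, rose by 0.52. Of 13 genes of lipid efflux and storage 5 rose and 1 fell, with a median of 0.004. Among those that rose were Plin2, a coat protein of lipid droplets, with 1077 and 944 at 12 h, against 379 and 502 at 0 h (1.21 ± 0.18), Fabp5, a fatty acid binding protein, by 1.19 ± 0.16, and Plin3 by 0.81. Abcg1, which exports cholesterol, had 318 and 334 at 12 h, against 575 and 531 at 0 h and fell by 0.76. Leaving out 0 h replicate 2 or 12 h replicate 2 left 6 cholesterol synthesis genes and 3 fatty acid synthesis genes that rose, and scaling to the 75th percentile left 3 and 1, with list medians of 0.712 and 0.378 and all 14 cholesterol synthesis genes still above 0.

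**Figure D3:**
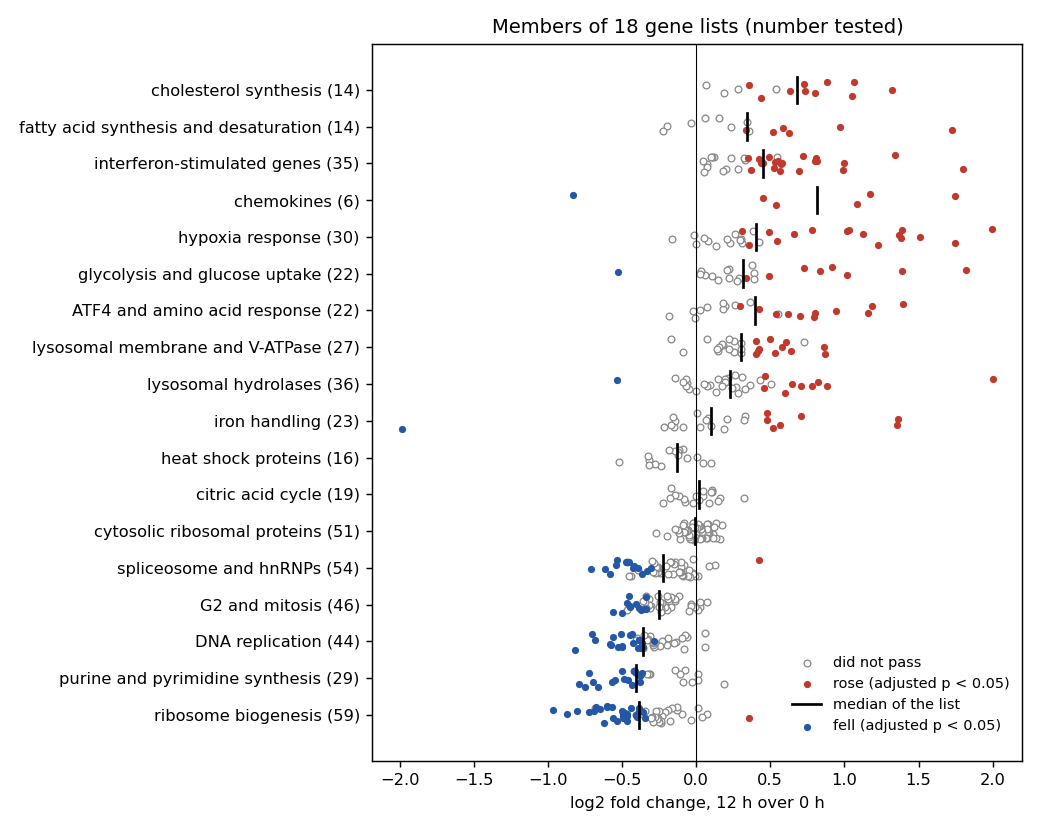
Log2 fold change of 12 h over 0 h (horizontal axis) for the tested members of gene lists (rows, with the number tested), with red points for members that rose, blue for those that fell, open for those that did not pass and a black bar at the median of the list. Cholesterol synthesis has the median of 0.68 and ribosome biogenesis that of -0.39, while the cytosolic ribosomal proteins lie close to 0.

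Interferon-stimulated genes rose together. Of 35 tested members 21 rose (60%), 0 fell and all 35 were above 0, with a median of 0.45. Rsad2, the antiviral protein viperin, had 1005 and 1206 at 12 h, against 350 and 286 at 0 h, a rise of 1.80 ± 0.13 (adjusted p = 0.000191). Usp18, which removes the interferon-induced modifier ISG15, had 5764 and 5866 at 12 h, against 2219 and 2372 at 0 h (1.34 ± 0.09). Isg15 itself had 895 and 806 at 12 h, against 426 and 425 at 0 h (1.996-fold, adjusted p = 0.00181), just under the 2-fold threshold, and Ifit3, which binds foreign RNA, had 589 and 637 at 12 h, against 299 and 319 at 0 h (0.99 ± 0.10). Dhx58, an RNA sensor, and Stat2, the interferon signal transducer, both rose by 0.81, and Cmpk2 by 0.80. The promoter of Rsad2, at chr12:26456403-26456702 on the minus strand of GRCm38.p6, is shown for its match to the core of the interferon-stimulated response element (GAAA, any 2 bases, then GAAA again), in capitals on the reverse strand.
Rsad2: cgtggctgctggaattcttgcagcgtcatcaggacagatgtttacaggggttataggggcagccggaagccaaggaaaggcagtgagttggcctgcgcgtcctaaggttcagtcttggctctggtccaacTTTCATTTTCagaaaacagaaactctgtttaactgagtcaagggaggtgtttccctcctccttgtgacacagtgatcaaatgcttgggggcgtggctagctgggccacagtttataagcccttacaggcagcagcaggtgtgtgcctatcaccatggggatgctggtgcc

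Genes were counted when any of their windows held this core on either strand. Counted so were 10 of 17 members that rose (58.8%), 13 of 28 tested members (46.4%) and 3.66% of all named genes tested. Of all single windows 3.44% held it. The number of interferon-stimulated genes that rose was 11, 10 and 9 without 0 h replicate 1, 0 h replicate 2 and 12 h replicate 2, and 6 under scaling to the 75th percentile, whereas Rsad2 and Usp18 stayed at an adjusted p under 0.05 in each of these.

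Several secreted inflammatory factors rose. Of 20 chemokines on the array 6 were detected on all arrays, and all 6 passed, 5 upward and 1 downward. Of 23 cytokines 10 were tested, of which 4 rose (40%) and 0 fell. With scaling to the 75th percentile, 1 cytokine rose. Cxcl2, which attracts neutrophils, had 1237 and 1072 at 12 h, against 338 and 351 at 0 h, a rise of 1.74 ± 0.11 (adjusted p = 0.000126). Ccl4 and Ccl3, which attract monocytes, were bright already at 0 h, with 35508 and 38822 at 12 h, against 17094 and 15812 at 0 h for Ccl4, and 28796 and 28232 at 12 h, against 12990 and 13864 at 0 h for Ccl3. They rose by 1.18 ± 0.10 and 1.09 ± 0.09, and the annotation used here places these close relatives in overlap on chromosome 11. Cxcl16, a scavenger receptor and chemokine, fell by 0.83 ± 0.12. Il1rn, the antagonist of the interleukin 1 receptor, had 1679 and 1509 at 12 h, against 475 and 494 at 0 h, a rise of 1.72 ± 0.09, and Tnf rose by 0.52 ± 0.13, with 2751 and 3089 at 12 h, against 2294 and 1800 at 0 h. Il1b, Il6, Il10, Nos2 and Ptgs2, textbook products of macrophages activated by bacterial lipopolysaccharide, were not detected on any array. Nfkbia, the inhibitor of NF-κB that NF-κB itself induces, changed by -0.17 ± 0.11 and did not pass, and 3 of 19 genes of the NF-κB list rose, led by Tnfaip2 with 1.16 ± 0.08. Without 0 h replicate 1, 0 h replicate 2 or 12 h replicate 2, and under scaling to the 75th percentile, 3 chemokines rose.

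Sensors and surface receptors of macrophages moved in both directions. Of 9 tested inflammasome genes 3 rose and 0 fell, and of 17 phagocytic and scavenger receptors 5 rose and 2 fell. Casp4, the inflammatory caspase that senses intracellular lipopolysaccharide, had 1317 and 1256 at 12 h, against 673 and 577 at 0 h (1.05 ± 0.11), while Nlrp3, the inflammasome sensor known for its response to crystals, had 141 and 139 at 12 h, against 146 and 147 at 0 h, near the detection limit. Among the Toll-like receptors and their adaptors, 5 of 16 rose and 3 fell. With scaling to the 75th percentile, 1 of these 16 rose and 0 fell. The same scaling left 1 phagocytic or scavenger receptor and 0 inflammasome genes that rose. Ticam2, an adaptor of Tlr4, had 902 and 944 at 12 h, against 441 and 409 at 0 h (1.12 ± 0.09), and Tlr2 had 5812 and 5482 at 12 h, against 10146 and 9303 at 0 h, a change of -0.78 ± 0.09. The Fc receptors Fcgr3 and Fcgr4, which bind antibody-coated targets, rose by 1.30 ± 0.10 and 1.05 ± 0.12, and neighbouring Fc receptor genes on chromosome 1 are alike in sequence. Msr1, a scavenger receptor for mineral particles, had 1055 and 1066 at 12 h, against 1258 and 1148 at 0 h (-0.18 ± 0.09, adjusted p = 0.22), and Marco, another one, was detected on neither the 12 h nor the 0 h arrays. Cd274, the checkpoint ligand PD-L1, had 706 and 728 at 12 h, against 266 and 275 at 0 h (1.41 ± 0.09), and Mgl2, a lectin of alternatively activated macrophages, rose by 1.39 ± 0.10. Havcr2, the checkpoint receptor TIM-3, fell by 1.07 ± 0.10. The lineage factor Spi1 and the receptor Csf1r did not pass, at -0.02 ± 0.10 and -0.27 ± 0.14, although Csf1r passed with the array set as a block (adjusted p = 0.0187).

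The amino acid response moved as a group. Of 22 tested members of the ATF4 list 11 rose (50%) and 0 fell, with a median of 0.39. Ddit3, the transcription factor CHOP of endoplasmic reticulum stress, had 2545 and 2345 at 12 h, against 989 and 870 at 0 h, a rise of 1.40 ± 0.10 (adjusted p = 0.000191). Trib3, a pseudokinase, had 3840 and 4347 at 12 h, against 1854 and 1804 at 0 h (1.16 ± 0.09), and Nupr1, a small stress-induced nuclear protein, had 2134 and 2247 at 12 h, against 1024 and 905 at 0 h (1.19 ± 0.10). Atf4 itself had overlapping arrays, 7518 and 5742 at 12 h, against 4927 and 6674 at 0 h (0.20 ± 0.17, adjusted p = 0.49), and differed by 0.22 and 0.17 within the 2 array sets. Of the chaperones and other genes of the unfolded protein response 3 of 22 rose and 0 fell, and 0 of 16 heat shock genes passed by limma, with 5 lower at an unadjusted p under 0.05 and 2 by the methods' t-test. The tRNA synthetases Sars and Aars, which also belong to the amino acid response, rose by 0.82 and 0.70. Of all 19 tested tRNA synthetases 4 rose and 1 fell, with a median of 0.033, and 2 to 3 rose with 1 array of 12 h or 0 h left out (2 without 0 h replicate 2, 12 h replicate 1 or 12 h replicate 2) and 0 under scaling to the 75th percentile. The windows of Trib3, at chr2:152344011-152344310 on the minus strand, and of Nupr1, at chr7:126625421-126625720 on the minus strand, are shown for their match to the core of the amino acid response element, TGATGNAA, in capitals and on the reverse strand in both.
Trib3: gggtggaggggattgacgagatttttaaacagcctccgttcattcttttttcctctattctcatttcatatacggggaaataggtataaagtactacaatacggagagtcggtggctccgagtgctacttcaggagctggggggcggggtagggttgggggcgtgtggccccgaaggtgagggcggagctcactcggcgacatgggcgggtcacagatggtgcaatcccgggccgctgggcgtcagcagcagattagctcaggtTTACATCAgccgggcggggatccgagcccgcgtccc
Nupr1: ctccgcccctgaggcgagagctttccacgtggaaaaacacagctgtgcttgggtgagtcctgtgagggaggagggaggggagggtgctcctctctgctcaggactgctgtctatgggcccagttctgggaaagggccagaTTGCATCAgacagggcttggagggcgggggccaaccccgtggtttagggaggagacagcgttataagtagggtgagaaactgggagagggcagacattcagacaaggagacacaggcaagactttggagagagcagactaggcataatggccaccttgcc

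These letters stood in a window of 4 of 10 members that rose (40%), 5 of 20 tested members (25%) and 2.76% of all named genes tested. Of all single windows 3.97% held them. Under scaling to the 75th percentile 3 of the 22 members rose. Among other stress genes, Hmox1, heme oxygenase, had 5508 and 4402 at 12 h, against 1627 and 2268 at 0 h, a rise of 1.36 ± 0.18, and 6 of 23 genes of the NRF2 list rose, among them Slc7a11, the cystine importer, with 0.98 ± 0.10. Nfe2l2, which encodes NRF2, had overlapping arrays (-0.01 ± 0.23). Gpx1, the main cytosolic glutathione peroxidase, went the other way, with 11796 and 11679 at 12 h, against 29693 and 28507 at 0 h, a change of -1.31 ± 0.08 (adjusted p = 0.000126). Of 17 tested antioxidant enzymes Cat, catalase, rose by 0.41 and Selenow, like Gpx1 a selenoprotein, changed by -0.51, and no member other than these and Gpx1 passed.

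Iron genes moved in opposite directions. Tfrc, the transferrin receptor that imports iron, showed the largest fall among the 9984 features, all detected on every array. It had 3048 and 3239 at 12 h, against 12864 and 12007 at 0 h, a change of -1.98 ± 0.09 (adjusted p = 7.45e-05). The second probe of Tfrc changed by -1.82. Id3, not among these features, is described below. Slc40a1, ferroportin, the iron exporter, had 5914 and 6373 at 12 h, against 2543 and 2241 at 0 h, a rise of 1.36 ± 0.10. Slc11a1, which moves iron out of the phagosome, had 14633 and 15608 at 12 h, against 9659 and 8909 at 0 h (0.70 ± 0.09), and Aco1, whose product binds iron-responsive elements, rose by 0.56. Of 23 tested iron genes 7 rose and 1 fell. Fth1, the heavy chain of ferritin, was near the top of the signal range, with 63492 and 59887 at 12 h, against 57190 and 65641 at 0 h, and did not pass. Without 0 h replicate 2 the number of iron genes that rose was 3, and under scaling to the 75th percentile it was 2.

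Falls were fewer, and several were in regulators. Mir17hg, the host gene of the miR-17-92 cluster of growth-promoting microRNAs, had 478 and 473 at 12 h, against 1830 and 1704 at 0 h, a change of -1.89 ± 0.11 (adjusted p = 0.0001). The array reads the host transcript, and mature microRNAs were not measured. The 6 mature microRNAs of the cluster are printed because the transcript that fell carries them, with the seed, bases 2 to 8, in capitals (RefSeq, GRCm38.p6, chromosome 14, plus strand). They fall into 4 seeds, with miR-17-5p and miR-20a-5p sharing one and miR-19a-3p and miR-19b-3p another.
mmu-miR-17-5p: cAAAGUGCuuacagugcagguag
mmu-miR-20a-5p: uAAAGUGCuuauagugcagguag
mmu-miR-18a-5p: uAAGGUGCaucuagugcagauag
mmu-miR-19a-3p: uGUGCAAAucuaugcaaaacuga
mmu-miR-19b-3p: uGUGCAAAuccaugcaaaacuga
mmu-miR-92a-3p: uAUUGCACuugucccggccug

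Myc, a known activator of this cluster, was not detected on any array. Skil, a repressor of TGF-β signaling that the pathway itself induces, had 654 and 653 at 12 h, against 2120 and 2052 at 0 h, a change of -1.67 ± 0.10. Id3, an inhibitor of helix-loop-helix factors and a target of bone morphogenetic proteins, was detected on both 0 h arrays and on neither 12 h array. It was at least 3.77-fold lower, with measured signals of 109 and 125 at 12 h, against 427 and 542 at 0 h. With all probes of the array normalized together, its measured log2 fold change was -2.04. Id2 fell by 0.53 on its brightest probe, and Tgfbr1, a receptor of TGF-β, fell by 1.14 ± 0.12 on its brightest probe, whereas its second probe changed by -0.31 and did not pass. Of the 7 tested TGF-β repressors and Id genes 2 fell, Skil and Id2, and 2 rose, Tob1 by 0.50 and Smurf1 by 0.34. Of 11 ligands, receptors and Smads 1 fell and 0 rose. Tgfb1, the ligand, changed by 0.14 ± 0.10 and Smad7 was not detected on any array. Usp2, a deubiquitinase under circadian control, had 953 and 892 at 12 h, against 2761 and 2564 at 0 h, a change of -1.53 ± 0.09. Other clock genes were split, with Per1 and Ciart higher by 0.54 and 0.65 and Per2 changed by -0.61. Fos, an immediate-early transcription factor, had 547 and 753 at 12 h, against 1935 and 1536 at 0 h (-1.43 ± 0.20), and Egr2 fell by 0.53, while Atf3 rose by 1.17 ± 0.09 and Jun by 0.56. Il6ra, the interleukin 6 receptor, fell by 1.12 ± 0.16 on its brightest probe and changed by -0.27 on the other one, which did not pass. Mtf1, the zinc-sensing factor of the metallothioneins, had 562 and 653 at 12 h, against 1242 and 1259 at 0 h (-1.05 ± 0.11). The other called falls of named genes were those of Gadd45g, Dmwd, Hmga2-ps1, Mybl2 and Nectin3, between -1.29 and -1.01. Gadd45g fell by 1.29 ± 0.09 while its relative Gadd45b, like it a stress-induced growth arrest gene, rose by 1.06 ± 0.13.

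Genes of growth and division fell by small amounts in large numbers. The study names cell cycle, DNA replication, and purine and pyrimidine metabolism among its pathways, so those lists are not independent of these arrays. Of 59 tested genes of ribosome biogenesis 31 fell and 1 rose, with a median of -0.39. Ncl, nucleolin, had 1743 and 1884 at 12 h, against 3915 and 3192 at 0 h (-0.96 ± 0.13), Grwd1, a histone-binding assembly factor, had 749 and 665 at 12 h, against 1309 and 1276 at 0 h (-0.87 ± 0.09), and Polr1b, a subunit of RNA polymerase I, fell by 0.81. The 51 cytosolic ribosomal protein genes, by contrast, had a median of -0.005 and 0 passed by limma, with 0 at an unadjusted p under 0.05 and 1 by the methods' t-test. In purine and pyrimidine synthesis 17 of 29 fell and 0 rose (median -0.41), with Dctd, dCMP deaminase, at 1191 and 1144 at 12 h, against 2114 and 1924 at 0 h (-0.79 ± 0.09). In DNA replication 20 of 44 fell and 0 rose (median -0.36), led by Pclaf, which binds the sliding clamp PCNA, with 844 and 787 at 12 h, against 1333 and 1551 at 0 h (-0.82 ± 0.11), and Cdc6, which loads the replicative helicase, with -0.71 ± 0.09. In G2 and mitosis 12 of 46 fell (median -0.25), in the spliceosome list 13 of 54, led by Srsf2 with -0.71 ± 0.08, and among cyclins and G1/S regulators 8 of 25 fell and 2 rose, one of them the inhibitor Cdkn1a with 0.78 ± 0.13. No member of these 6 lists was at least 2-fold lower. Mybl2, a factor of the proliferation genes that is on none of them, was called lower, with 1348 and 1371 at 12 h, against 2950 and 3148 at 0 h (-1.16 ± 0.10). These counts rest on small changes. Without any 1 of the 4 arrays of 12 h and 0 h, 11 to 20 ribosome biogenesis, 6 to 8 purine and pyrimidine, 7 to 11 replication, 4 to 6 spliceosome, 2 to 4 cyclin and 0 to 5 mitosis genes fell, and under scaling to the 75th percentile 0 did, although the medians of all 6 lists stayed below 0, between -0.18 and -0.37 there. The same counts were higher when the array set was a block in the fit, 48 for ribosome biogenesis, 21 for purine and pyrimidine synthesis, 34 for replication, 28 for the spliceosome, 13 for cyclins and 29 for mitosis.

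Lysosomal genes were already higher at 12 h for a part of the members. Of 36 tested hydrolases 9 rose (25%) and 1 fell, with a median of 0.23, and of 27 genes of the lysosomal membrane and proton pump 11 rose (40.7%) and 0 fell, with a median of 0.30. The study names the lysosome among its pathways, so these lists are not independent of these arrays. After Hyal1 the largest changes among the hydrolases were those of Naglu, 868 and 774 at 12 h, against 371 and 535 at 0 h (0.88 ± 0.17), and Neu1, a sialidase, 4831 and 4793 at 12 h, against 2703 and 2742 at 0 h (0.82 ± 0.09). Atp6v0d1, a pump subunit, rose by 0.87 ± 0.09 and Mcoln2, an ion channel, by 0.86 ± 0.09. Sqstm1, the autophagy receptor p62, had 20615 and 18797 at 12 h, against 11767 and 11563 at 0 h (0.75 ± 0.09), one of 8 of 28 autophagy genes that rose. Under scaling to the 75th percentile 2 hydrolases, 1 membrane gene and 0 autophagy genes rose, and without 0 h replicate 2 the membrane and autophagy counts were 3 and 3.

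Some probes crossed the detection limit. On 302 probes signal was detected on both 12 h arrays and on neither 0 h array, and on 165 the reverse. Most were near the limit, and 9 and 3 had a bound of 1.5-fold or more. The largest bound was that of ILMN_2735350, a probe with no gene symbol. It was at least 5.08-fold higher, with 634 and 674 at 12 h, against 123 and 102 at 0 h. Among the named ones detected at 12 h only, Fam71f2 was at least 2.27-fold higher, with 265 and 320 at 12 h, against 128 and 112 at 0 h, and Atp13a4, a transporter of the P5 ATPase group, at least 2.01-fold higher. Tnfrsf9, the costimulatory receptor 4-1BB, was at least 1.88-fold higher on one probe and 1.74-fold on another, with 241 and 243 at 12 h, against 125 and 105 at 0 h on the first of these. Lat, an adaptor known from T cell receptor signaling, was at least 1.77-fold higher, and Hectd2os, a long noncoding RNA, at least 1.90-fold higher, with 237 and 252 at 12 h, against 117.5 and 118 at 0 h. Tspan10, a tetraspanin, was at least 1.74-fold higher. Besides Id3, Cdk5r1, an activator of a neuronal kinase, was at least 1.53-fold lower, with 119 and 115 at 12 h, against 189 and 201 at 0 h. Hmgn3, Fbxl13 and further probes of Id2 and Usp2 were at least 1.29-fold to 1.38-fold lower.

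The levels at 48 h are given as a description on the same arrays, and members of 1 group took different courses. Of the 117 features called higher at 12 h, 50 had moved further by 48 h at an adjusted p under 0.05 for 48 h against 12 h, 33 had moved back, and 34 showed no difference that passed. Of the 17 called lower, 6 had moved further, 5 back and 6 neither. The sterol genes were among those that turned: Lss had 2237 and 1956 at 0 h, then 4365 and 4291 at 12 h, and later 858 and 814 at 48 h, and the median of the cholesterol synthesis list against 0 h was 0.68 at 12 h and -0.53 at 48 h. Ifit3 and Rsad2 were lower at 48 h than at 12 h by 1.48 and 1.23 on the log2 scale, while Usp18 changed by -0.04 between these times and did not pass. Within the hypoxia list Adm had 254 and 237 at 0 h, then 772 and 875 at 12 h, and later 286 and 293 at 48 h, whereas Ndrg1 stayed high, with 10909 and 8269 at 48 h. Ddit3, with 8477 and 7675 at 48 h, and Slc40a1, with 15871 and 16956 at 48 h, moved further. Tfrc, Mir17hg and Skil stayed low at 48 h, with differences from 12 h of 0.10, 0.09 and 0.24 that did not pass, and Fos had 1935 and 1536 at 0 h, then 547 and 753 at 12 h, and later 2453 and 3398 at 48 h.

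**Figure D4:**
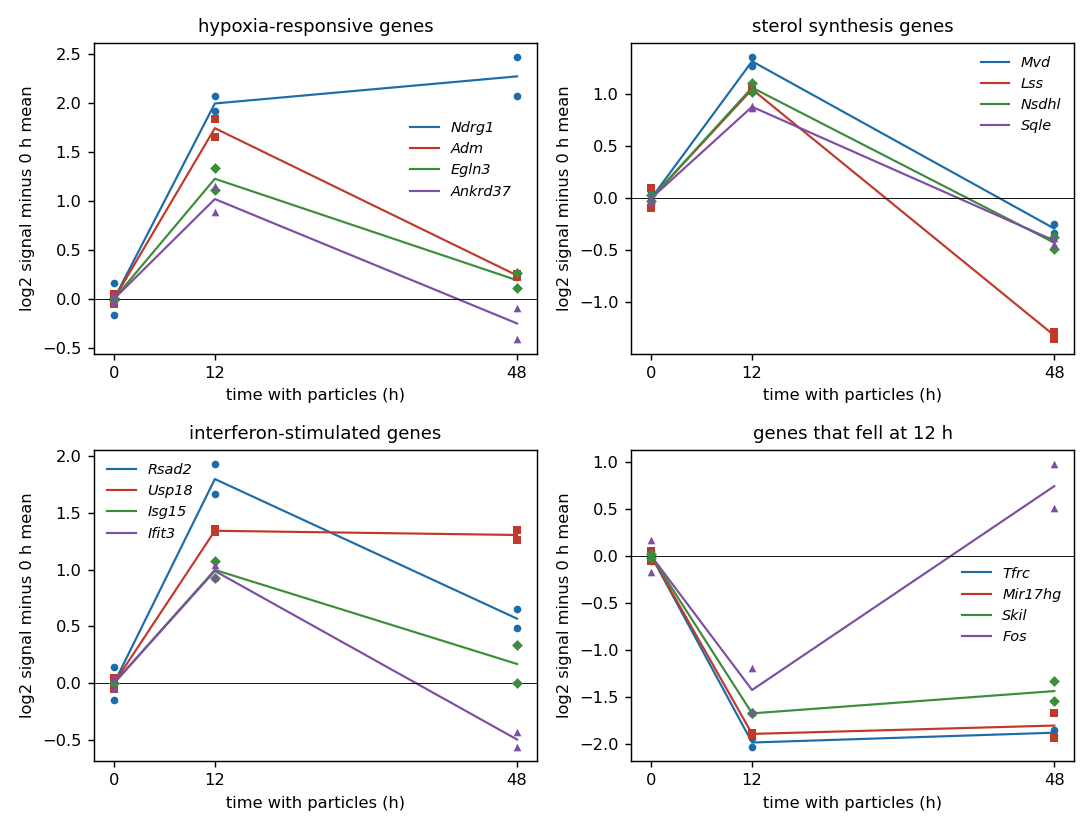
Log2 signal minus the mean of the 0 h arrays (vertical axis) against time with particles in h for 16 genes in 4 groups, with 1 point per array and lines through the means. Mvd, Lss, Nsdhl and Sqle are above 0 at 12 h and below 0 at 48 h, Tfrc, Mir17hg and Skil stay low, and Fos is below 0 at 12 h and above 0 at 48 h.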

How the data were processed

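RAW 264.7 RNA from 0 h, 12 h and 48 h was measured on 6 single-colour beadchip arrays (Illumina Mouse WG-6 v2.0), with 2 per time. The authors exported probe signal intensities from GenomeStudio, and the deposited intensities carry neither a log step nor normalization between arrays. The detection p-values in the deposited table were set by the authors' software against the negative controls of each array. A second table deposited by the authors holds log2 values after quantile normalization, which the values show was done in 2 separate sets of arrays, and served as an alternative. The methods and the submitters' processing notes name different versions of R, and the notes give 3.0.2.

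For the values here, probes whose detection p was below 0.05 on every array (14091 of 45281, 31.1%) were taken to log2 and quantile normalized together. The brightest probe stood for a gene, which gave 9984 features, of which 8149 carry a symbol from the platform annotation, updated through RefSeq (GRCm38.p6), and 1835 do not. Detected probes numbered 16920 and 16176 at 12 h, against 16238 and 16352 at 0 h, while the later time had 17155 and 16372. One limma fit (limma 3.58.1, R 4.3.3) with a mean per time point was adjusted by Benjamini-Hochberg over the features, with 3 residual degrees of freedom, so the number of arrays limits the precision. Features were called at an adjusted p under 0.05 and at least 2-fold. For probes detected in only one group the bound sets the bright mean against the lowest detected signal or the dim probe's own signal, whichever was higher. Signals and bounds of these probes come from a separate quantile normalization of all 45281 probes. They are therefore not strictly on the scale of the other signals. In data simulated for 12 h against 0 h over 9984 features, 61 of 67 features changed 1.5-fold passed, 67 of 67 changed 2.5-fold and 66 of 66 changed 4-fold, with 13 false passes and 0 false calls. The simulated noise was independent between arrays, without an effect of the array set, and few features were changed. The measured arrays deviate together by set, so these rates may not carry over to them.

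The comparison, gene lists, motifs and named genes were chosen with earlier results of these data known. Named are the 20 largest rises and all falls among called genes, up to 4 members per list, a set of regulators and the 6 largest bounds in each direction. Further genes in the text were picked after their values were seen. Promoter windows were found for 6699 of the 8149 named genes. Alternatives were other detection filters, normexp (offset 16), division by each array's 75th percentile, the deposited log2 table, mean or every probe, blocks for replicate number and array set, the methods' t-test, and leaving out each array.

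Replicate numbers did not pair the arrays: the deviations of same-numbered arrays had a correlation of -0.567 for 12 h with 0 h, of -0.575 for 48 h with 0 h, and of 0.631 for the pair of exposed times.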

Additional observations from a re-analysis of the deposited data

Results flagged for a closer look

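Among the features called at 12 h, 7 lay on opposite sides of 0 h at 12 h and at 48 h by the following rule. Both the difference between the times and that of 48 h from 0 h had to pass limma's test (adjusted p under 0.05). St3gal6 was 1.52 above 0 h at 12 h and -1.14 at 48 h, a difference of -2.66 from 12 h to 48 h (adjusted p = 7.47e-06). The sterol synthesis genes did the same, Lss by -2.37, Mvd by -1.61 and Nsdhl by -1.50. The probes ILMN_2540103 and ILMN_2654952, which carry no symbol here, changed by -2.37 and -1.38. Fos ran the other way, at -1.43 at 12 h and 0.74 at 48 h, a difference of 2.17 (adjusted p = 0.000107). Both comparisons with 0 h share the same 0 h arrays, and the cause of these turns was not tested.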

How the results depend on the processing

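The 117 rises and 17 falls of the main setting came to 199 and 36 with normexp background correction, to 1037 and 884 at the adjusted p alone, and to 0 and 0 both from the deposited normalized table and by the methods' t-test after Benjamini-Hochberg adjustment, where 116 and 17 of the table's features and 116 and 16 of the t-test's were at least 2-fold changed at an unadjusted p under 0.05. With the array set as a block, an alternative chosen after seeing the data, the deposited table gave 116 and 17. With the replicate block the counts stayed at 117 and 17, and 169 of 192 named genes still passed and the mitosis list dropped to 5 falls and the purine and pyrimidine list to 10. With the array set as a block 1957 features rose and 2035 fell at the adjusted p alone, against 731 and 553 with the replicate block. Of the named genes that did not pass, Hif1a, Vhl and Csf1r passed with the array set as a block. With 1 array left out the 134 features kept their direction each time. Without a 12 h or 0 h array, however, only 120 or 121 of them stayed at least 2-fold changed. All other settings gave 105 to 141 rises and 12 to 22 falls, and no named gene that passed changed direction under any of these settings. With 75th percentile scaling the medians of 5 lists turned from below to above 0, cytosolic ribosomal proteins (-0.005 to 0.046), the MYC network (-0.027 to 0.004), the circadian clock (-0.008 to 0.016), NF-kB subunits (-0.011 to 0.031) and the proteasome (-0.009 to 0.03). Scaling to the 75th percentile kept 120 of the 134 called features, but 61 of 192 named genes at the adjusted p, and its median standard error was 0.19 against 0.102. Dim probes near the detection limit and 2 arrays per time point limit what could be seen.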

Other observations

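Of 46 tested histone genes 3 rose (6.52%) and 0 fell, shares below those over all features (10.4% and 8.85%). Those that rose included H2bc4 with 705 and 725 at 12 h, against 435 and 418 at 0 h (0.75 ± 0.11), and H2ac18 (0.70 ± 0.11). Of 19 histone lysine demethylases, several of which use oxygen and iron, 5 rose, led by Kdm5b with 0.66 ± 0.11, and 2 fell. Among osteoclast genes, of interest because this line can form osteoclasts, Ctsk, cathepsin K, rose by 0.65 ± 0.096 and Tnfrsf11a, the receptor RANK, fell by 0.52 ± 0.10, 5 of 10 rising and 2 falling in all. Leaving out any one of the 12 h and 0 h arrays left 1 to 3 rises in the osteoclast list, with 1 without 12 h replicate 2, and without 0 h replicate 2 the demethylases had 1. With 75th percentile scaling none of these 3 lists had a member that rose at the adjusted p.

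Some probes that rose carry a name in the study but no symbol in the annotation used here, and were left out of the lists. The probe ILMN_2974720, which the study named Igf2bp2, had 7160 and 7500 at 12 h, against 2180 and 2279 at 0 h (1.72 ± 0.087, adjusted p = 7.45e-05).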
